A study of Mus musculus with 39 samples.

Results

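The passage from the 1-cell to the 2-cell stage was measured in mouse embryos that had been exposed to MGCD0103, an inhibitor that acts mainly on the class I histone deacetylases (HDACs) HDAC1, HDAC2 and HDAC3. The arrays were chosen by their labels: 3 with treated 1-cell embryos, collected at 12 h post-insemination (hpi), and 3 with treated 2-cell embryos, collected at 24 hpi, which made up 6 of the 39 arrays of the series. Of 22340 named genes on the array, 15916 passed the detection filter and were tested for a change between these 2 stages. The series followed untreated oocytes and embryos from the GV oocyte to the blastocyst and asked how selective HDAC inhibitors (HDACi) alter the transcriptome of early embryos. Control embryos and embryos exposed to T247, an inhibitor of HDAC3, were collected at the same times, again with 3 arrays for each stage, and are used here for comparison.

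All embryos carried unaltered genomes and came from in vitro fertilization of B6D2F1 oocytes, from females 8 to 9 weeks old, with ICR sperm, from males 15 to 20 weeks old. MGCD0103 and T247 were each given at 10 µM for 6 h from 4 hpi, so that exposure had ended before the 1-cell collection, and the embryos then returned to plain medium. Control embryos received neither compound, and no vehicle is named for them. Each array held RNA of 100 pooled embryos. The study describes the samples of a group as independent biological replicates. Whether these pools came from separate fertilizations is not given in the sources used here, and the p-values describe the spread between pools. The arrays report each transcript relative to the others on the array, and a lower signal can mean less RNA in every embryo or fewer embryos with the transcript, which cannot be told apart.

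The egg stores transcripts made during oocyte growth, and after fertilization many of these are destroyed while the new genome is switched on, a pair of events called the maternal-to-zygotic transition. In the mouse the main burst of zygotic genome activation (ZGA) takes place in the 2-cell embryo, where families of retroelement-linked and germline genes are transcribed briefly and genes for ribosomes, RNA processing and the cell cycle follow. Class I HDACs remove acetyl groups from histones as parts of corepressor complexes, and their inhibition raises histone acetylation.

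The arrays of each MGCD0103 stage resembled each other closely, with correlations over all genes of 0.994 to 0.996 among the 1-cell arrays and 0.993 to 0.994 among the 2-cell arrays, against 0.863 to 0.878 between the stages. All 6 lay on 1 slide, with the 1-cell arrays at positions 3 to 5 and the 2-cell arrays at positions 6 to 8, so that stage and position on the slide cannot be told apart. The T247 arrays of both stages lay on 1 other slide, and control replicates 1, 2 and 3 on a slide each. Levels compared between treatments at 1 stage therefore cannot be told apart from the slide, whereas each change between stages was measured within slides. Among the control 2-cell arrays, replicate 1 stood apart: correlations within this group ran from 0.935 to 0.994, and the MGCD0103 2-cell arrays correlated with replicate 1 at 0.958 to 0.960 and with replicates 2 and 3 at 0.902 to 0.921. Counts of genes above and below control are therefore given with and without it where it moves them. Markers of the oocyte and of the 2-cell embryo followed the labels. All 10 oocyte and zygote markers were well above background (a flag of the scanner software) on every MGCD0103 array. Their summed signal was 480300 to 512000 at the 1-cell and 146800 to 172800 at the 2-cell stage. All 7 of the 2-cell markers on the array were well above background on every 2-cell array, and their summed signal rose from between 5413 and 5768 to between 101200 and 121500. Of 10 markers of cumulus and granulosa cells, which surround the ovulated egg, 5 were on no array of either stage well above background. Another 4 were well above it on all 1-cell arrays, among them Cyp19a1 and Col1a2, and 3 markers were so on all 2-cell arrays. The list's summed signal was 1864 to 2061 at the 1-cell and 443 to 578 at the 2-cell stage. Of 8 sperm markers, 3 were on no array well above background, while 1 was so on all 1-cell and 3 on all 2-cell arrays. The summed signals of the list were 2231 to 2808 and 1303 to 1458. The part of these cells in the falls below was not tested. The 8 markers of later embryo lineages, all of them above background on the 2-cell arrays, summed to 1868 to 2248 at the 1-cell and 6381 to 8436 at the 2-cell stage.

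Between the stages, 2206 genes rose (13.9% of those tested) and 5376 fell (33.8%), counting a differentially expressed gene (DEG) as one with a log2 fold change (LFC), 2-cell over 1-cell, of at least 1 in size and a limma adjusted p below 0.05. Genes above or below control or T247 were called by the same limits, applied to the difference in LFC. This balance depends on the scaling between arrays: when arrays were scaled to their 75th percentile in place of smooth quantile normalization, the median LFC of all genes moved from -0.55 to 0.38, and 4246 genes rose and 2103 fell, so that risers made up 66.9% of the DEGs in place of 29.1%. All 2206 risers and 2103 of the fallers were DEGs under both scalings, and no gene changed direction. The shift was upward, by 0.93 in the median, so risers could hardly lose their call and the comparison does not test them. Below, counts of falls in a gene list are therefore given with the number called under both scalings, and gene lists with their median LFC relative to the median of all genes, which took the same sign in all 13 alternative settings unless stated. The 1-cell and 2-cell arrays did not overlap for 2190 of the 2206 risers and 5362 of the 5376 fallers, beside 13312 of all 15916 tested genes. By fitted LFC the rises were the larger changes, with an LFC of at least 4 for 463 risers and 73 fallers. For 802 of the 2206 risers no 1-cell array was well above background, so the size of their rise is not measured. The same held at the 2-cell stage for 259 of the 5376 fallers.

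Risers and fallers differed in what the unfertilized egg held. The MII arrays took no part in the calls, but the 1-cell level did, with a median of 4.42 for risers and 10.31 for fallers. The embryo inherits the egg's stored transcripts, so the MII shares are not independent of the calls. Of the fallers, 93.8% were well above background on all 3 arrays of untreated MII oocytes and 3.18% on none. Of the risers, 40% were well above background on all MII arrays and 47.7% on none. Over all tested genes the shares were 77.5% and 15.9%. From the 2-cell to the 4-cell stage of control embryos, 29.9% of the risers rose further and 30.9% fell, beside 24.7% and 35.1% of all tested genes.

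**Figure D1:**
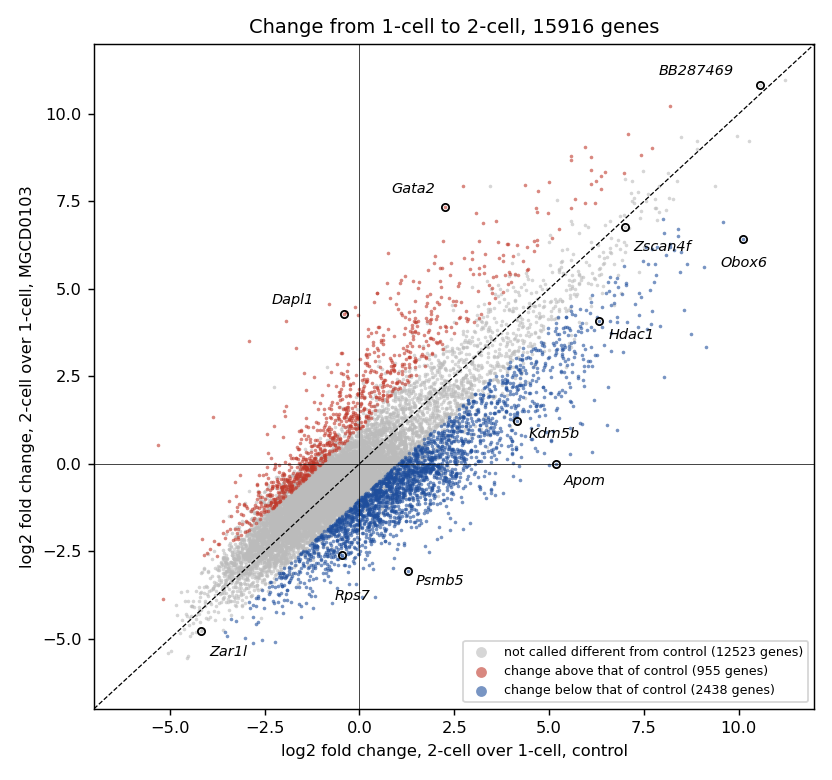
Each of the 15916 tested genes is plotted by its LFC from 1-cell to 2-cell in control embryos (horizontal axis) and under MGCD0103 (vertical axis), both on the log2 scale; the dashed line marks equal change, and red and blue points are the 955 and 2438 genes whose change under MGCD0103 lay above or below that of control (limma). BB287469 and Zscan4f lie near the line at the top, Gata2 and Dapl1 far above it, and Hdac1, Apom and Psmb5 below it.

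Among genes well above background on all 6 arrays, the 10 steepest rises were led by BB287469 and included several members of multicopy families. BB287469, an Eif1a-related gene, measured 5.88, 5.67 and 5.48 on the 1-cell arrays and 16.41, 16.45 and 16.62 on the 2-cell arrays (normalized log2 signal), an LFC of 10.82 ± 0.21 (SE, n = 3 and 3; limma adjusted p = 7.2e-18). Its control LFC was 10.57. Gm4340, Gm4312, AA414992, Fthl17f (a ferritin heavy chain relative), Pramel39, 1700003E24Rik, Gm13043, Pramel16 and Gm2022 followed, with LFCs between 7.95 and 9.43. The Pramel genes encode leucine-rich relatives of the tumour antigen PRAME. Members of these families share sequence, so a probe may read several copies.

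Some rises started from below the reach of the array. Counting genes well above background on all 3 arrays of a stage and on none of the other, 1200 of the 22340 named genes (5.37%) came on at the 2-cell stage under MGCD0103 and 277 (1.24%) went off. More probes as a whole were above background at the later stage, 53.3 to 58.3% on the MGCD0103 2-cell arrays and 52.3 to 53.4% on the 1-cell arrays. Of the 1200 genes that came on, 1120 were on no MII array well above background, and 606 were on all 3 control 2-cell arrays. The brightest that came on were Fthl17e (at least 524-fold higher in 2-cell embryos), Pramel17 (at least 328-fold), 1700084M14Rik (at least 319-fold), Krt18 (at least 261-fold) and Tdpoz9 (at least 249-fold), where each bound sets the 2-cell mean against the dimmest signal counted as well above background. Krt18 encodes keratin 18, a filament protein of the later trophectoderm. Its 2-cell arrays read 11.78, 11.81 and 12.05, all above the control 2-cell arrays at 9.14, 10.61 and 10.60, which lay on different slides.

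Of 37 genes listed as typical of the 2-cell embryo, 30 were on the array and 25 passed the detection filter. Of the 30, 9 came on, beside 5.37% of all named genes. Of the 25, 21 rose (84%, beside 13.9% of all tested genes) and 3 fell (12%, beside 33.8%), 2 of them under both scalings. The other 1, Zfp600, was not called. The median LFC was 4.57 (5.12 above the median of all genes). Control embryos had the same counts, with a median of 4.45, as did T247 embryos, with 4.60. Zscan4f, from a zinc finger family that acts at telomeres, read 8.69, 8.68 and 8.57 on the 1-cell and 15.42, 15.48 and 15.37 on the 2-cell arrays. Its stages lay far apart, with an LFC of 6.78 ± 0.22 (adjusted p = 3.2e-15, limma) beside 7.01 in control and 6.64 under T247. Usp17lc, of a deubiquitinase family, read 6.18, 5.75 and 5.93 and then 13.43, 13.43 and 13.68, an LFC of 7.56 beside 5.70 in control. Its 1-cell arrays were lower than the control's 8.77, 7.17 and 8.08, which come from different slides. Spz1, a basic helix-loop-helix gene known from testis, came on by at least 91.1-fold. The remaining members named here rose by smaller amounts: Zfp352 by 5.28, Tmem92 by 4.93, Tdpoz2 by 4.57, Tcstv3 by 3.76 and Tcstv1 by 2.37.

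Within this list some members ended lower or rose less under MGCD0103 than in control. Obox6, a homeobox gene, reached 9.39, 9.31 and 9.59 on the MGCD0103 2-cell arrays and 12.36, 13.63 and 13.75 on those of control, levels that come from different slides. Its 1-cell signals were not well above background in either, so that its change has no measured size. The test of the difference in LFC, MGCD0103 minus control, gave -2.70 for Tdpoz2 (adjusted p = 2.3e-05, limma) and -1.65 for Tmem92. In all, the difference from control was called above 0 for 3 of the 25 and below for 6, beside 6% and 15.3% of all tested genes. Without control 2-cell replicate 1 these counts were 6 and 7. The members that fell were the arginase gene Arg2 (LFC -3.65), Sp110 (-1.81, or -0.89 with 75th-percentile scaling) and Obox3 (-1.95). Other probes of Obox3 rose by 3.14 to 6.99, so its direction rests on the choice of probe.

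**Figure D2:**
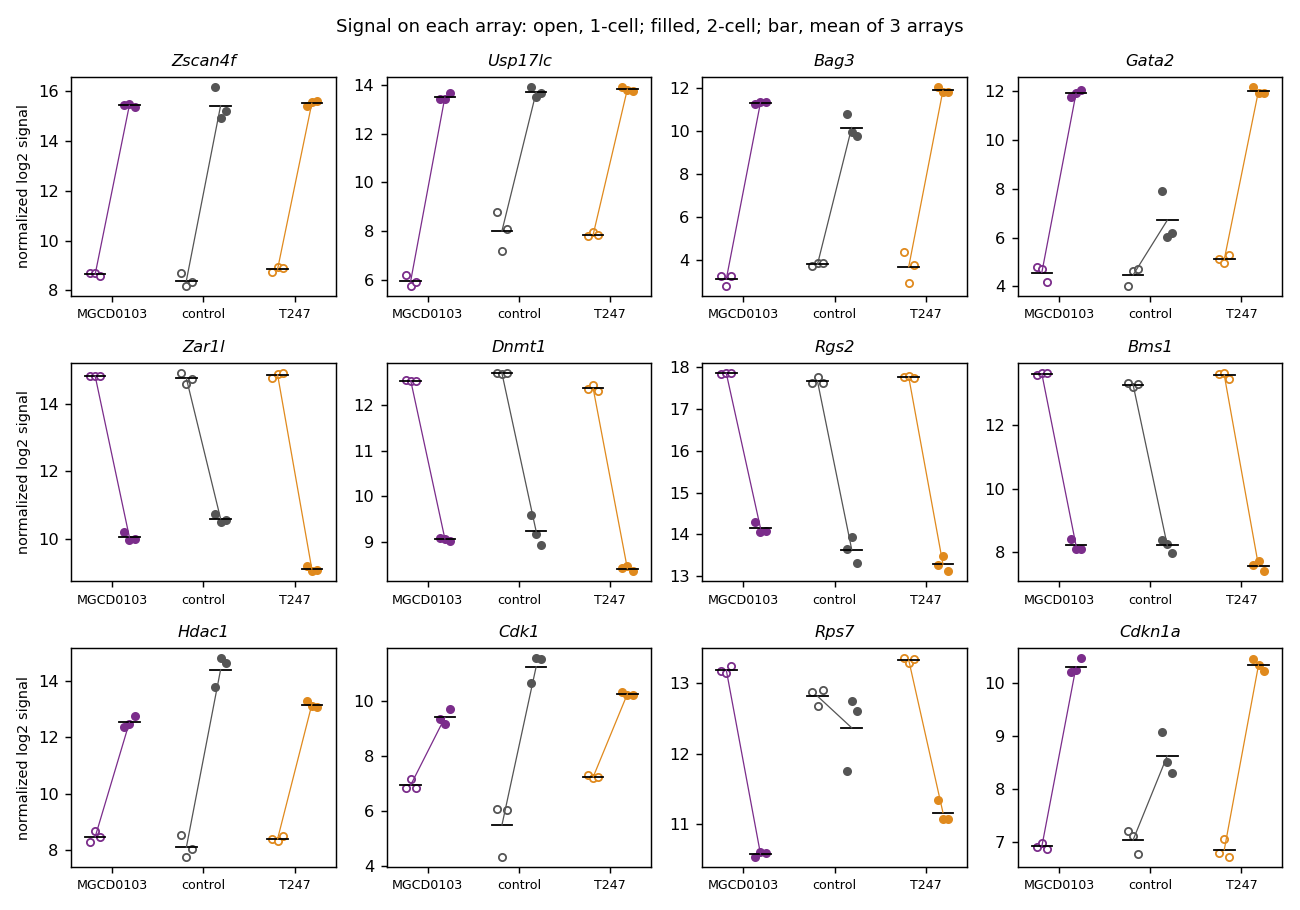
Normalized log2 signal of 12 genes on each of 18 arrays, with the vertical scale of each panel fitted to its gene; open points are 1-cell and filled points 2-cell arrays, bars are means of 3 arrays, and colours separate MGCD0103, control and T247. The top row shows rises, the middle row falls of similar size in all 3 treatments, and the bottom row genes whose step under MGCD0103 differed from control: Hdac1 ended at 12.35, 12.49 and 12.75 under MGCD0103 and at 13.79, 14.82 and 14.64 in control.

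Regulators of genome activation, 38 tested genes, were mixed, with 11 risers (28.9%, beside 13.9% of all tested genes). The 13 fallers (4 under both scalings) made up 34.2%, beside 33.8% of all tested genes. The median LFC was -0.28 (0.28 above all genes). Klf5, a zinc finger factor of the first lineage choice, rose from 3.43, 4.36 and 3.13 to 9.28, 9.54 and 9.60, and Dbx1, a homeobox factor, from 4.77, 4.93 and 5.14 to 10.19, 10.25 and 10.40. In both, the stages were separated by more than 4 log2 units and the difference from control was not called. Myc came on by at least 9.93-fold, and the ETS factor gene Gabpa by at least 13.4-fold. Gabpa reached 7.53, 7.60 and 7.68 on the MGCD0103 2-cell arrays beside 10.83, 11.33 and 11.22 in control, levels that come from different slides. Zfp42, a marker of pluripotent cells, rose by 4.24 and Sox2 by 1.54. Nfya, a subunit of the CCAAT-binding factor NF-Y, fell by 3.12 and Eif1ax by 2.27, close to their control LFCs of -3.30 and -2.27.

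Kdm5b and Dppa4 departed furthest from control within the same list. Kdm5b, which removes methyl groups from lysine 4 of histone H3, read 10.09, 10.12 and 10.21 and then 11.24, 11.32 and 11.54, whereas control went from 9.79, 10.17 and 10.01 to 13.52, 14.55 and 14.36. Its LFC was 1.23 under MGCD0103 and 4.16 in control, a difference of -2.93 (adjusted p = 1.3e-07, limma), and other probes of Kdm5b gave MGCD0103 LFCs from 0.54 to 3.75. Dppa4, a chromatin protein of early embryos, read 8.00, 7.47 and 7.81 and 7.69, 7.97 and 8.02, overlapping between stages, and reached 10.55, 11.52 and 11.38 in control 2-cell embryos. Its LFC of 0.13 was not called, and the difference from control was -3.48 (adjusted p = 1.0e-07).

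Transcription factors of later tissues were often among the risers. Of 64 listed, 37 passed the detection filter, of which 18 rose (48.6%, beside 13.9% of all tested genes) and 4 fell (1 under both scalings). Of the 64, 11 came on, beside 5.37% of all named genes. Their median LFC was 1.04, or 1.59 above all genes, beside 1.32 in control and 1.88 under T247 on the relative scale. Gata2, a master regulator of blood stem cells, read 4.80, 4.72 and 4.18 on the 1-cell and 11.78, 11.93 and 12.03 on the 2-cell arrays. Control embryos reached only 7.93, 6.03 and 6.17, with replicate 1 the highest, and the LFC was 7.35 ± 0.35 under MGCD0103 (adjusted p = 5.9e-13, limma), 2.25 in control and 6.90 under T247. Runx1, another blood regulator, came on by at least 8.24-fold. Gata3 and Gata5 fell by 1.59 and 1.92, and Gata3 was no longer called when arrays were scaled to their 75th percentile. For 10 of the 37 the LFC was called above that of control and for 2 below it, beside 6% and 15.3% of all tested genes. Without control 2-cell replicate 1 these counts were 12 and 9.

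Of 31 tested maternal effect genes, whose products in the egg are needed by the embryo, 16 fell (51.6%, beside 33.8% of all tested genes; 8 under both scalings), 1 rose, 14 were not called, and the median LFC was -1.42, or -0.87 relative to all genes. The control figures were 22 falling and -0.97 relative. The difference from control was called above 0 for 2 genes and below for 1, beside 6% and 15.3% of all tested genes. Without control 2-cell replicate 1 these counts were 7 and 2. Zar1l, an RNA-binding protein gene of the oocyte, read 14.82, 14.83 and 14.84 at the 1-cell and 10.19, 9.96 and 9.98 at the 2-cell stage, without overlap, an LFC of -4.78 ± 0.12 (adjusted p = 9.6e-17, limma). Its relative Zar1 fell by 3.63. Zfp57, which protects imprints, fell by 4.33, beside -4.32 in control. The genes for the maintenance methylation enzyme Dnmt1 and its partner Uhrf1 went from 12.55, 12.54 and 12.54 to 9.09, 9.07 and 9.02 and from 15.83, 15.85 and 15.84 to 13.53, 13.55 and 13.37, so that neither overlapped between stages, and the differences from control were -0.01 and 0.20. Nlrp5, Padi6 and Tle6, parts of the subcortical maternal complex, fell by 2.10, 2.45 and 2.68.

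Not all maternal effect genes were lost. Tcl1, a coactivator of the survival kinase AKT, read 18.32, 18.26 and 18.43 and then 18.16, 18.07 and 18.29, with an LFC of -0.16 that was not called. The heat shock factor gene Hsf1 had 0.10 and Ctcf, which organizes chromatin loops, -0.20. Dppa3, which shields the maternal genome from demethylation, had -0.32 beside -1.18 in control, a difference that was not called. The riser of the list was Zfp36l2, whose product binds AU-rich messages and promotes their decay, at least 50.2-fold higher at the 2-cell stage.

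Genes listed under secreted and membrane proteins of the oocyte fell in 19 of 26 cases (8 under both scalings), or 73.1%, beside 33.8% of all tested genes. In this list, which also holds the signalling genes Rgs2 and Mos, 0 rose (2 at an unadjusted limma p below 0.05 with no fold limit). Its median was -0.97 relative to all genes. Rgs2, a regulator of G protein signalling, read 17.85, 17.86 and 17.87 at the 1-cell and 14.31, 14.05 and 14.09 at the 2-cell stage. Its LFC of -3.71 ± 0.15 (adjusted p = 7.3e-14, limma) stood beside -4.03 in control and -4.48 under T247. Mos, the kinase that holds the egg in metaphase, fell by 3.57, with 3 of its 24 values filled in, and Plat, encoding tissue plasminogen activator, fell by 3.03. Among zona pellucida genes Zp3 fell by 2.19. Zp1 and Zp2 (LFC -1.15 and -1.34) and the oocyte growth factor genes Gdf9 (-1.59) and Bmp15 (-1.31) were called with smooth quantile normalization and not with 75th-percentile scaling. Omt2a and Omt2b, oocyte maturation genes, had LFCs of 0.32 and 0.27 in treated and 0.30 and 0.26 in control embryos.

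The mRNA decay machinery, 43 tested genes, had 3 risers and 20 fallers (7 under both scalings) with a median of -0.15 relative to all genes. Fallers made up 46.5%, beside 33.8% of all tested genes. Transcripts of the deadenylation adaptor Btg4 and of the CCR4-NOT deadenylases Cnot7 and Cnot6l had LFCs of -0.43, -0.70 and -0.46, none of them called. Their control values were -1.24, -1.29 and -0.87, and no difference from control was called. Pabpn1l, which helps BTG4 reach maternal messages, fell by 3.52 and the decapping factor gene Dcp1a by 3.16. Tut4, which adds uridines to short-tailed messages, came on by at least 6.06-fold, to 6.49, 6.27 and 6.79. Control, on different slides, reached 7.59, 9.30 and 9.12. Dis3, the exosome nuclease gene, rose by 1.77, less than its 3.48 in control (difference -1.71). Ythdf2, which reads methylated adenosine in RNA, fell by 1.40 where control had 0.37, a difference of -1.76. With 75th-percentile scaling its own fall was -0.50 and not called.

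Among genes above background on all 6 arrays, 9 of the 10 steepest falls came from outside these lists. Bms1, a GTPase of small ribosomal subunit assembly, read 13.58, 13.62 and 13.63 and then 8.42, 8.10 and 8.11, an LFC of -5.40 ± 0.13 (adjusted p = 4.7e-17, limma), with -5.05 in control and -5.99 under T247. It was followed by Gspt2, Dnttip2, Kcnn2, Lrrc36, Pdpn, Txnip, Rars, Ftdc1 and Zar1l, between -5.35 and -4.78. Txnip encodes a thioredoxin-binding regulator of glucose uptake and Rars arginyl-tRNA synthetase. Another probe of Gspt2 gave 0.68, so that gene is uncertain. Among transcripts that went off, Draxin, a secreted axon guidance protein gene, was at least 22.6-fold lower at the 2-cell stage, Tsga10ip at least 18.1-fold, Ten1 at least 17.4-fold and Chid1 at least 15.7-fold. Of the 277 genes that went off, 136 were well above background on all MII arrays and 11 on all 3 control 2-cell arrays.

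**Figure D3:**
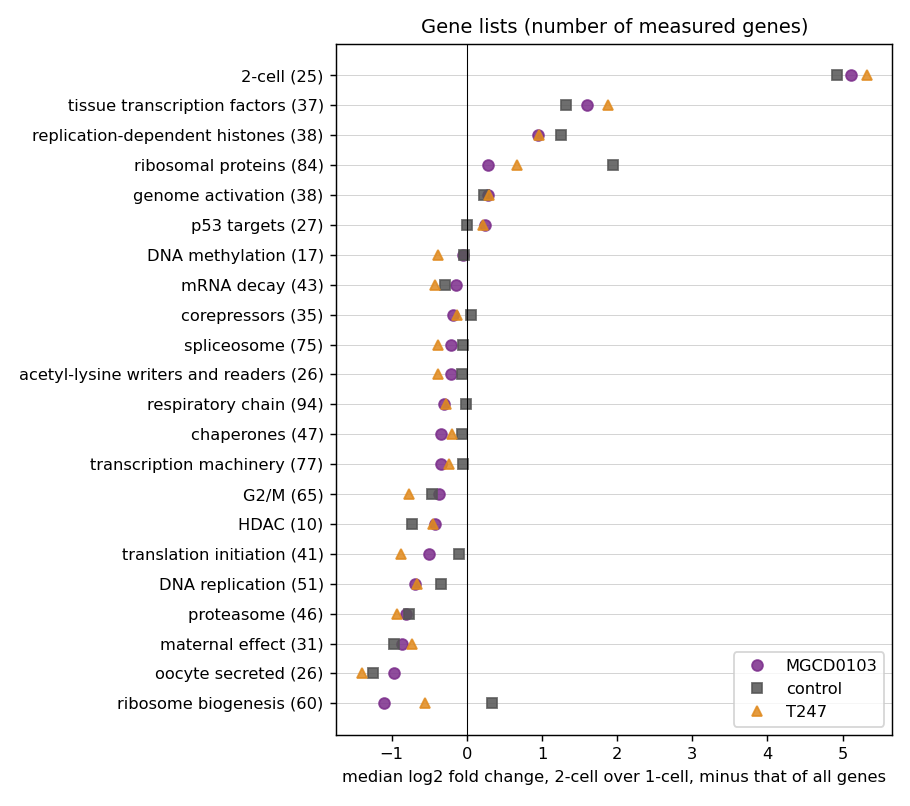
Median LFC from 1-cell to 2-cell of each of 22 gene lists minus the median LFC of all 15916 genes (log2), for MGCD0103 (circles), control (squares) and T247 (triangles), with the number of measured genes in brackets. The lists for ribosomal proteins and ribosome biogenesis show the widest gap between MGCD0103 and control, at 0.28 beside 1.95 and -1.10 beside 0.34, and the 2-cell list lies near 5 in all 3.

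Comparison with untreated embryos asked how much of the normal course was kept. In control, 2964 genes rose (18.6%) and 5355 fell (33.6%) between the same stages. Of the 2964 control risers, 1733 (58.5%) also rose under MGCD0103, 1143 (38.6%) were not called and 88 fell, and their median LFC was 1.50 beside 2.36 in control. Of the 5355 control fallers, 3976 (74.2%) also fell, 1361 were not called and 18 rose, with a median of -1.54 beside -1.74. These genes were chosen by their control values, which inflates the control side. T247 embryos, whose arrays are shared with neither, therefore give another reading: 2043 of the control risers (68.9%) and 4625 of the fallers (86.4%) moved the same way under T247. With 75th-percentile scaling the shares under MGCD0103 were 71.2% of 4163 control risers and 52.9% of 3122 control fallers, and under T247 81.3% and 68.8%. The order of rise and decay thus turned with the scaling, while MGCD0103 stayed below T247 in each. T247 also had more calls over all tested genes, 16% rising and 40.7% falling beside 13.9% and 33.8% under MGCD0103. With 75th-percentile scaling the counts over all tested genes were 4660 and 2696 beside 4246 and 2103.

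**Figure D4:**
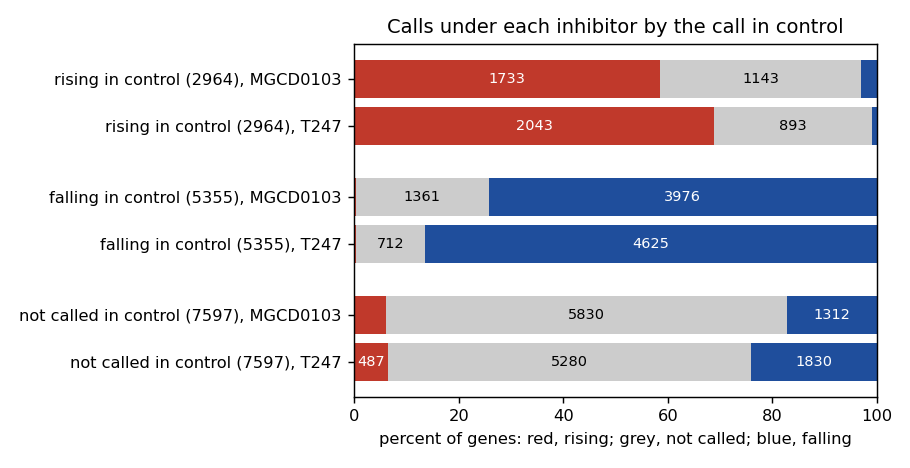
Bars show the percentage of genes called rising (red), not called (grey) or falling (blue) from 1-cell to 2-cell under MGCD0103 and under T247, for genes grouped by their call in control embryos; numbers in the bars are genes. Of the 2964 control risers, 1733 rose under MGCD0103 and 2043 under T247, and of the 5355 control fallers 3976 and 4625 fell.

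The difference between the 2 courses was tested gene by gene as an interaction (LFC under MGCD0103 minus LFC in control). It was called above 0 for 955 genes (6% of those tested) and below for 2438 (15.3%), and without control 2-cell replicate 1 for 2177 and 3361. A call needed a difference of at least 1 in size and a limma adjusted p below 0.05. With 75th-percentile scaling the counts were 2149 above and 1643 below, and 955 and 1643 were called under both scalings. Of the 1143 control risers not called under MGCD0103, 813 were below control. A further 455 genes rose under MGCD0103 without a call in control, with a median LFC of 1.63 beside 0.39 in control, and under T247 338 of them rose, with a median over the 455 of 1.51.

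Ribosomal protein genes showed the widest gap to control among the 22 lists. In control, 52 of 84 rose and 1 fell, whereas under MGCD0103 21 rose, all of them also control risers, and 20 fell (4 under both scalings). The MGCD0103 shares of 25% and 23.8% stood beside 13.9% and 33.8% of all tested genes. The interaction was called below 0 for 70 of the 84 genes, beside 15.3% of all tested genes. Under both scalings 56 were called below 0, and without control 2-cell replicate 1 76 were. It was called above 0 for 0 genes (2 at an unadjusted limma p below 0.05). Their median LFC relative to all genes was 0.28 under MGCD0103, 1.95 in control and 0.67 under T247, and within the 3 control slides it was 1.09, 2.46 and 2.23. Rps7, of the small subunit, read 13.17, 13.13 and 13.24 on the 1-cell and 10.54, 10.61 and 10.60 on the 2-cell arrays under MGCD0103. In control it went from 12.86, 12.67 and 12.89 to 11.75, 12.74 and 12.60, with replicate 1 the lowest, so that the control stages overlapped and the treated ones did not. Its LFC of -2.60 differed from the control's -0.45 by -2.15 (adjusted p = 1.6e-06, limma). The largest rises in the list were those of Rps19 (4.29 beside 5.62 in control) and Rpsa (4.24 beside 5.70). Rpl7l1 fell by 3.44, with -0.27 in control. Many ribosomal protein genes have processed pseudogenes that a probe may also read.

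Ribosome biogenesis genes moved the same way. Of 60, 43 fell under MGCD0103 (24 under both scalings) and 2 rose, against 19 and 13 in control. The falling share was 71.7%, beside 33.8% of all tested genes. The interaction was called below 0 for 38, beside 15.3% of all tested genes, and above for 0 (1 at an unadjusted limma p below 0.05). The relative median was -1.10 under MGCD0103, 0.34 in control and -0.55 under T247. Nop2, an RNA methyltransferase of the large subunit, rose from 7.99, 7.81 and 7.80 to 9.93, 10.23 and 10.14 under MGCD0103. Control reached 12.64, 14.06 and 13.92, above every treated array, and the difference in LFC was -3.69 (adjusted p = 2.5e-07, limma). Nop56, of box C/D ribonucleoproteins, rose by 1.08 beside 2.92 in control, with other probes between -2.59 and 3.80. Utp4, of the small subunit processome, fell by 4.05 beside -1.55, and Taf1b, of the RNA polymerase I factor SL1, fell by 5.09, from 9.96, 9.90 and 9.82 to 4.71, 4.42 and 5.28. Not all MGCD0103 arrays were well above background for Taf1b, so the size of its fall is uncertain.

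**Figure D5:**
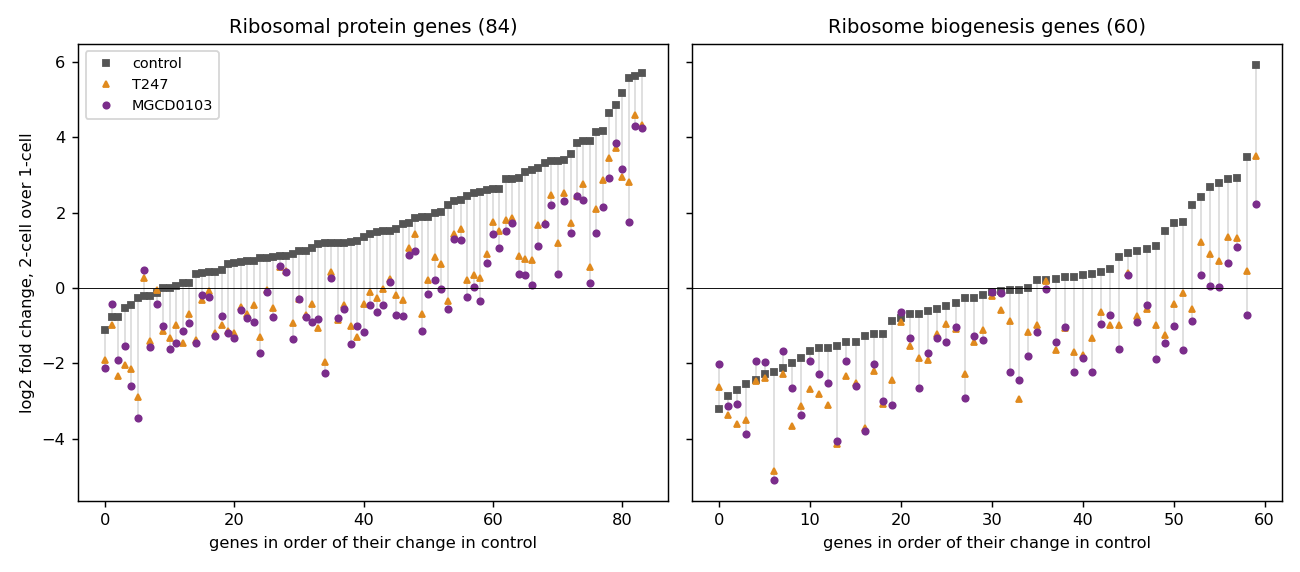
LFC from 1-cell to 2-cell (log2) of each of 84 ribosomal protein genes (left) and 60 ribosome biogenesis genes (right), ordered along the horizontal axis by the change in control; squares are control, triangles T247 and circles MGCD0103, and grey lines join control and MGCD0103 of 1 gene. The MGCD0103 points lie below control for nearly every gene of the left panel, where 70 of 84 differences were called.

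Other lists of the expressed machinery also held more fallers than risers. Under MGCD0103, 6 spliceosome genes rose and 36 fell (18 under both scalings), as did 2 and 22 (9) of translation initiation, 1 and 36 (17) of the transcription machinery, 5 and 45 (16) of the respiratory chain and 2 and 30 (17) of the proteasome. The falling shares were 48%, 53.7%, 46.8%, 47.9% and 65.2%, beside 33.8% of all tested genes. The interaction was called below 0 for 23 of 75 spliceosome genes, 12 of 41 translation initiation genes and 19 of 77 genes of the transcription machinery. It was so for 26 of 94 respiratory chain genes and 11 of 46 proteasome genes. In the same order, 3, 0, 2, 1 and 3 were called above 0 (4 for translation initiation at an unadjusted limma p below 0.05). Over all tested genes the shares were 15.3% below and 6% above. Without control 2-cell replicate 1 the counts were 27, 14, 23, 32 and 17 below and 12, 4, 7, 4 and 6 above. The relative medians under MGCD0103 were -0.22, -0.50, -0.35, -0.30 and -0.81; the sign for the transcription machinery turned in some settings (up to 0.13). Eif3c, of the scaffold that recruits ribosomes, fell by 4.37 beside -1.54 in control, whereas its partner Eif3e fell by 4.38 beside -3.95. Pabpc1, the poly(A)-binding protein gene, rose by 1.43 beside 3.96. Replication-dependent histone genes, 38 tested, had 8 risers and 7 fallers (3 under both scalings) under MGCD0103 and 16 and 1 in control. Their MGCD0103 shares of 21.1% and 18.4% stood beside 13.9% and 33.8% of all tested genes. H1f5 and H2ac4 rose by 4.51 and 4.45, near control, and H3c8 fell by 2.62 beside -0.66. DNA replication genes fell in 30 of 51 cases (58.8%, with 15 under both scalings), among them Rfc3 (-4.34) and Cdc7 (-3.84). Ccne1, the cyclin of S phase entry, rose by 3.00. Cdc6, which loads the replicative helicase, read 8.30, 8.28 and 8.21 and then 7.17, 7.44 and 7.55 under MGCD0103, an LFC of -0.88 that was not called, and 1.94 in control (difference -2.82).

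Among the single genes furthest below control were several that rose in control and not under MGCD0103. Apom, an apolipoprotein gene, read 5.81, 5.81 and 5.19 and 5.62, 5.58 and 5.57 in treated embryos, overlapping between stages, and 9.61, 11.11 and 10.74 in control 2-cell embryos, a difference in LFC of -5.20 (adjusted p = 7.1e-09, limma). Trub2, a mitochondrial pseudouridine synthase gene, fell by 1.70 (-0.80 and not called with 75th-percentile scaling) where control rose by 2.93. Psmb5, the chymotrypsin-like subunit of the proteasome, went from 10.88, 10.79 and 10.85 down to 7.86, 7.72 and 7.73 in treated embryos, while control went from 10.62, 10.36 and 10.37 to 9.72, 12.79 and 12.69. In control replicate 1 Psmb5 was therefore below its 1-cell level and in replicates 2 and 3 above it, and all 3 lay above the treated 2-cell arrays. Gtf3c5 and Gtf3c6, subunits of the RNA polymerase III factor TFIIIC, differed from control by -4.52 and -4.47. For Itln1, an intestinal lectin gene, control replicate 1 (5.94) was as low as the treated arrays and the other two reached 11.59 and 11.47.

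On the other side, Dapl1 read 5.67, 5.31 and 5.46 and then 9.50, 9.77 and 9.97 under MGCD0103 and 7.13, 5.38 and 4.56 in control 2-cell embryos, a difference in LFC of 4.68 (adjusted p = 6.8e-06, limma). Its LFC was 4.27 under MGCD0103 and 4.01 under T247. Tnfrsf23, a decoy receptor gene, rose by 5.16 beside 0.72 in control, Rgcc, a cell cycle regulator, by 6.36 beside 2.21, and Ccdc61 by 2.11 beside -1.42. Plgrkt, a plasminogen receptor gene, rose by 1.37, and its control 2-cell arrays read 7.06, 4.18 and 4.44, with replicate 1 the highest. Bag3, a cochaperone of HSP70, came on from 3.21, 2.78 and 3.25 to 11.22, 11.34 and 11.36, at least 175-fold. In control, on different slides, it reached 10.77, 9.94 and 9.74. Of 47 chaperone genes 8 rose (17%) and 21 fell (44.7%, with 12 under both scalings), beside 13.9% and 33.8% of all tested genes. Among the chaperones Hspa2 rose by 3.87 and Cct3, of the chaperonin TRiC, fell by 3.02 beside -0.77 in control.

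Among HDAC genes, 1 of 10 tested rose and 5 fell (2 under both scalings), beside 13.9% and 33.8% of all tested genes. Below control lay 2, beside 15.3% of all tested genes. Without control 2-cell replicate 1 another 2 lay above it. Hdac1, a target of MGCD0103, read 8.27, 8.65 and 8.45 on the 1-cell arrays and 12.35, 12.49 and 12.75 on the 2-cell arrays, while control went from 8.51, 7.75 and 8.02 to 13.79, 14.82 and 14.64. The treated 2-cell arrays lay below every control 2-cell array, and the LFC of 4.08 ± 0.21 differed from the control's 6.32 by -2.25 (adjusted p = 1.1e-05, limma), with other probes at 2.73 and 3.64 under MGCD0103. Hdac3 and Hdac4 fell by 2.68 and 2.13. Hdac2, Hdac7 and Hdac8 had LFCs of -1.57, -1.39 and -1.75 and were not called with 75th-percentile scaling. Hdac7 started higher in treated embryos, at 9.47, 9.35 and 9.21, than in control, at 6.99, 7.06 and 7.37, and ended higher, at 8.04, 7.94 and 7.88 beside 5.53, 4.60 and 4.85, levels that come from different slides, so the difference in LFC was 0.75 and not called. Hdac5 had 0.20 under MGCD0103 and 1.91 in control (difference -1.71), with control 2-cell arrays at 8.37, 10.59 and 10.40. Among corepressor subunits, Mta2 of the NuRD complex rose by 1.80 beside 5.55 in control. Of the 35 subunits, 9 were below control, beside 15.3% of all tested genes, while 1 rose and 12 fell (34.3%, with 3 under both scalings). Of 26 genes for acetyl-lysine writers and readers, the proteins that place and bind the mark which HDACs remove, 0 rose in limma (2 at an unadjusted p below 0.05) and 10 fell (38.5%; 4 under both scalings), and of 17 DNA methylation genes 4 rose and 7 fell (41.2%; 3 under both scalings). These falling shares lie near the 33.8% of all tested genes.

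Genes of the G2/M passage, 65 tested, had 6 risers and 31 fallers (18 under both scalings). The falling share was 47.7%, beside 33.8% of all tested genes, and the relative median was -0.37, beside -0.47 in control. The interaction was called above 0 for 5 and below for 14, beside 6% and 15.3% of all tested genes. Without control 2-cell replicate 1 the counts were 12 and 15. Cdk1, the mitotic kinase, rose from 6.85, 7.14 and 6.83 to 9.33, 9.17 and 9.70 and in control from 6.08, 4.32 and 6.05 to 10.66, 11.56 and 11.53, without overlap in either. Its LFC was 2.46 ± 0.32 beside 5.76, a difference of -3.30 (adjusted p = 1.7e-05, limma), and other Cdk1 probes ran from 0.62 to 4.50 under MGCD0103. Cdc25c, the phosphatase that activates it, rose by 1.01 beside 3.43. Ccnb1, its cyclin, read 15.67, 15.43 and 15.21 on the treated 2-cell arrays and 15.32, 12.99 and 13.60 on those of control, with replicate 1 the highest, and its LFC of -0.89 was not called while the difference from control, 1.48, was. The kinase genes Plk1, Aurka and Wee1 fell by 3.11, 2.96 and 2.63, and the kinetochore and checkpoint genes Ndc80 and Bub3 by 3.61 and 3.29.

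Cdkn1a and the Gadd45 genes, which hold back the cell cycle, rose. Cdkn1a, the p53-induced inhibitor p21, went from 6.91, 6.98 and 6.87 to 10.20, 10.24 and 10.46 and in control from 7.22, 7.12 and 6.79 to 9.07, 8.51 and 8.30. The treated 2-cell arrays were all above control, and the LFC of 3.37 exceeded the control's 1.58 by 1.79 (adjusted p = 1.8e-05, limma) and was close to the 3.47 under T247, while another probe gave 1.13. Gadd45g, a stress sensor that binds the mitotic kinase, went from 9.62, 9.35 and 9.46 to 12.02, 12.12 and 12.27, and control stayed between 10.03 and 10.86. Its relatives Gadd45a and Gadd45b rose by 1.93 and 3.27 without a called difference from control. Of 27 p53 targets 9 rose and 11 fell (4 under both scalings), the same numbers as in control. Their shares of 33.3% and 40.7% stood beside 13.9% and 33.8% of all tested genes. Bbc3, the death gene PUMA, rose by 3.75, and Bax and Ddit4 fell by 2.90 and 3.19.

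Most genes that changed under MGCD0103 also changed under T247. Under T247, 2548 genes rose (16%) and 6483 fell (40.7%), and 92.1% of the MGCD0103 risers rose and 91.8% of the fallers fell under T247. The change under MGCD0103 lay above that under T247 for 178 genes (1.12%) and below for 292 (1.83%), counts that ran from 82 to 193 and from 153 to 304 when 1 array of these groups was left out and were 368 and 637 without control 2-cell replicate 1, which enters the shared variance. Among control risers the share below T247 was 6.85%, and among control fallers the share above it 1.85%. Among the genes named here, the largest excess was that of Pramel39, which went from 6.17, 5.98 and 5.28 to 14.60, 14.52 and 14.71. Its LFC was 8.80 beside 5.82 under T247 (difference 2.98, adjusted p = 0.0064, limma) and 5.57 in control. 1700003E24Rik, 1700084M14Rik, Usp17lc and Gm4340 followed with 2.16, 2.00, 1.58 and 1.39, the value of 1700084M14Rik being fitted to 1-cell signals near background. On the T247 arrays Pramel39 read 8.79, 8.80 and 8.82 at the 1-cell and 14.68, 14.62 and 14.56 at the 2-cell stage. The 2-cell arrays of both inhibitors thus read alike for Pramel39, and the 1-cell arrays differed. The largest deficits among the named genes were those of Itln1 (-5.27), Lclat1, of cardiolipin remodelling (-2.37), and Hdhd3 (-2.19). Nop2 and Pabpc1 also changed less than under T247, by -1.27 and -1.23. Hdac1, Cdk1, Kdm5b and Gadd45g did not differ from T247 by this test, with differences of -0.70, -0.56, -0.87 and 0.88. No ribosomal protein gene was called different from T247 in limma, with 3 above and 13 below at an unadjusted p below 0.05.

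Promoter sequences were set beside these changes for 12507 of the 15916 tested genes, with 15695 promoters from RefSeq (GRCm38.p6). In the 250 bases before the start, read on both strands, the letters TATAAA were found in 11.1% of the promoters of risers, 15.2% of those of risers with an LFC of at least 4 and 7.05% of those of fallers, beside 8.46% of all promoters. The letters CCGGAAG, the core read by ETS factors such as GABPA, were found in 7.09% of promoters of risers, 14.7% of fallers, 16.2% of genes below control and 26.7% of ribosomal protein genes, beside 11.4% of all. These are descriptions of sequence, not sites of binding, and these were 2 of 9 motifs searched. CCAAT was found in 40% of risers, 35.5% of fallers and 35.5% of all, and GGGCGG in 47.4%, 52.8% and 50.6%. For AGATAAG the shares were 2.78%, 1.56% and 2.05%, and 4.14% of risers with an LFC of at least 4. The letters CACGTG were in 6.23%, 8.42% and 7.7%, TAATCC in 6.47%, 5.99% and 5.55%, TGACGTC in 3.55%, 4.96% and 4.08%, and AAGGTCA in 3.93%, 3.05% and 3.26%. The 120 bases before the start are printed for a gene of each kind named above, in lower case with the motif in capitals. The first group rises and has the letters TATAAA 28 to 31 bases before its start: Zscan4f (chr7:11397795-11397914, plus strand), Pramel39 (chr5:94306797-94306916, minus strand) and Dapl1 (chr2:59484533-59484652, plus strand). The second lay below control and has the ETS letters: Nop2 (chr6:125131763-125131882, plus strand), Rps7 (chr12:28635954-28636073, minus strand) and Utp4 (chr8:106893520-106893639, plus strand), both of these with the letters on the opposite strand (CTTCCGG).
Zscan4f: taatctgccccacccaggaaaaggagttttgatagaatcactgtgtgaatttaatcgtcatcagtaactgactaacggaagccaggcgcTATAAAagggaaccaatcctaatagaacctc
Pramel39: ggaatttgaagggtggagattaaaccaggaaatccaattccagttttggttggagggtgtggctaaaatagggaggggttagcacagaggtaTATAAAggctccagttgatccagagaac
Dapl1: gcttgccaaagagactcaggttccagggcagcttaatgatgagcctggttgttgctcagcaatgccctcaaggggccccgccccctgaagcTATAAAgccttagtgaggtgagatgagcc
Nop2: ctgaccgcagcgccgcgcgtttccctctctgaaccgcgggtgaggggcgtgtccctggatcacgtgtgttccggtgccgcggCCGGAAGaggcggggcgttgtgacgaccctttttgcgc
Rps7: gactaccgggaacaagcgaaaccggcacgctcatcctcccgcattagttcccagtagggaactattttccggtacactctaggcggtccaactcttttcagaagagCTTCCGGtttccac
Utp4: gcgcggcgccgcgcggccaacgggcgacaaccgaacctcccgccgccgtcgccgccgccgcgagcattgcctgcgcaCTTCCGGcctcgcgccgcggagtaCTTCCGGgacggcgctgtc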

How the data were processed

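The authors hybridized Cy3-labelled cRNA of 100 pooled embryos per array to 1-colour Agilent mouse arrays and deposited, per the file headers, a background-subtracted intensity for each spot with detection flags. Feature Extraction is given as version 9.5.1.1 in the submitters' processing notes and 10.7.1.1 in the file headers. The authors' deposited series matrix of normalized log2 values served as an alternative. One 1-cell MGCD0103 array was deposited with intensities rounded to fewer digits.

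Of 55681 probes, 31399 could be named (27325 by accession, 3523 by symbol, 551 by synonym) and 24282 could not and were left out. Probes had to carry the scanner's positive-and-significant flag in every one of 8 conditions, on 1 array or more of the 3, which left 21440 probes for 15916 genes, each read by its brightest probe. Following the study's methods, missing values, 2.89% of all, were filled in from a trimmed covariance, and arrays were brought together by smooth quantile normalization. A linear model of the log2 values over 24 arrays and 8 conditions used limma 3.58.1 (R 4.3.3), with Benjamini-Hochberg adjustment over all genes and an LFC of at least 1 at an adjusted p below 0.05. The fit was tested on simulated data. With 3 arrays in a condition, precision is limited by their number.

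Genes named in the text were the 10 largest rises and falls among genes well above background on all 6 arrays, the 5 brightest that came on or went off, the 6 lowest and highest against control and the 3 against T247, the 2 largest rises and falls of each list, and any member of the lists for maternal effect, oocyte secretion, mRNA decay, the 2-cell stage, genome activation, G2/M and HDACs, with Hdac7, Cdc6, Cdk1, Ccnb1, Cdc25c, Gadd45g, Kdm5b, Smarca4 and Nfya. Genes ranked by size had to be called, and the largest rises and falls not to overlap between stages. Those ranked against control or T247 had also to be well above background on every array compared. The comparison, the gene lists and the rule were chosen with earlier results of these data known. For a fold given as a lower bound, the dim stage was set on each array to the dimmest probe still well above background, or to the gene's own signal where that was brighter. Alternatives covered scaling, background correction, filters, probe choice, array weights, slide and replicate blocks, the arrays fitted, the series matrix and each array left out. The slide as a fixed block, the positive-and-significant flag for genes that came on, and lists without control 2-cell replicate 1 were added after seeing the data.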

Additional observations from a re-analysis of the deposited data

Results flagged for a closer look

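The test of the difference between the course under MGCD0103 and that of control singled out 955 genes above and 2438 below control, and that against T247 178 above and 292 below. Of the 143 genes named in the text, 69 changed differently from control and 16 from T247, by the interaction in limma. The values that follow are differences in LFC on the log2 scale. For 10 of the genes, Fthl17e, 1700084M14Rik, Krt18, Bag3, Myc, Runx1, Gabpa, Obox6, Tut4 and Ten1, no MGCD0103 array of 1 of the stages was well above background, so their values are fitted to signals near background and do not measure the size of the difference.

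Above control lay genes of multicopy 2-cell families, Gm4340 (2.34), Gm4312 (1.33), Pramel39 (3.23), 1700003E24Rik (2.29), 1700084M14Rik (1.86), Fthl17e (2.03), Fthl17f (1.39) and Usp17lc (1.86). Transcription factor genes above control were Gata2 (5.10), Gata3 (1.22), Runx1 (1.16) and Myc (1.39). Cell cycle genes above control were Gadd45g (2.98), Cdkn1a (1.79), Rgcc (4.15) and Ccnb1 (1.48). The others were Dapl1 (4.68), Tnfrsf23 (4.44), Ccdc61 (3.52), Plgrkt (3.34), Krt18 (3.12) and Bag3 (1.86).

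Below control lay the ribosome genes Rps7 (-2.15), Rps19 (-1.32), Rpsa (-1.45), Rpl7l1 (-3.17), Nop2 (-3.69), Nop56 (-1.84), Utp4 (-2.50) and Taf1b (-2.88). For Taf1b not all MGCD0103 arrays were well above background, so the size of its difference is uncertain. Genes of translation, RNA polymerase III and RNA decay below control were Eif3c (-2.83), Pabpc1 (-2.53), Gtf3c5 (-4.52), Gtf3c6 (-4.47), Trub2 (-4.63), Rars (-1.26), Tut4 (-2.31), Dis3 (-1.71) and Ythdf2 (-1.76). Chromatin and early embryo genes were Hdac1 (-2.25), Hdac5 (-1.71), Mta2 (-3.75), Kdm5b (-2.93), Dppa4 (-3.48), Gabpa (-2.58), Gata5 (-1.28), H3c8 (-1.97), Obox6 (-3.68), Tdpoz2 (-2.70), Tmem92 (-1.65) and Arg2 (-1.29). Genes of the cell cycle and replication were Cdk1 (-3.30), Cdc25c (-2.42), Cdc6 (-2.82), Ccne1 (-1.22), Plk1 (-1.05), Wee1 (-1.82) and Ndc80 (-1.05). The others were Apom (-5.20), Psmb5 (-4.35), Itln1 (-4.39), Lclat1 (-2.90), Cct3 (-2.24), Dnttip2 (-2.33), Kcnn2 (-1.96), Pdpn (-1.44), Ten1 (-2.47), Ddit4 (-1.08) and Zp3 (-1.05).

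Above T247 lay Pramel39 (2.98), 1700003E24Rik (2.16), 1700084M14Rik (2.00), Usp17lc (1.58), Gm4340 (1.39) and Rgcc (1.18). Below T247 lay Itln1 (-5.27), Lclat1 (-2.37), Hdhd3 (-2.19), Gtf3c5 (-1.79), Trub2 (-1.75), Gtf3c6 (-1.35), Nop2 (-1.27), Pabpc1 (-1.23), Cdc6 (-1.03) and Dnttip2 (-1.02).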

How the results depend on the processing

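With 75th-percentile scaling 4246 genes rose and 2103 fell, 2149 lay above control, 93 above T247, and 2962 control risers and 1652 control fallers kept their direction under MGCD0103; with plain quantile normalization 1704 lay above control and 539 below T247. Normexp background correction gave 1315 risers, 541 above control, 49 above and 118 below T247 and 1003 shared risers. Among genes with no filled-in value 1380 rose, 111 lay above T247 and 1135 rises were shared with control. With array weights, which gave control 2-cell replicate 1 a weight of 0.0301, 2175 lay above control, 476 above and 685 below T247. Fitting only the arrays compared gave 611 above control and 402 above and 652 below T247. Without the fold limit 8397 fell, 6633 falls were shared with control, and 766 lay above and 472 below T247. The authors' series matrix, with 10830 genes, gave 953 risers, 472 above control, 85 above T247 and 790 shared risers. Counts moved by smaller factors than these with the other 3 detection filters, the mean of a gene's probes and the trended and robust variance prior. The same held for the slide as a random or fixed block. Without fill-in, the filters for detection in any condition and in either MGCD0103 condition still gave 3228 and 3245 risers. Plain quantile normalization also lowered the fallers to 3680 and the falls shared with control to 2662. The cause of these shifts was not tested.

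Leaving out 1 array of the groups that a count compares gave 2162 to 2224 risers, 5320 to 5391 fallers, 662 to 2177 above and 2037 to 3361 below control, 82 to 193 above and 153 to 304 below T247, and 1685 to 1765 risers and 3883 to 4012 fallers shared with control. Control 2-cell replicate 1 set the upper end of the counts against control. Left out, it also moved counts it enters only through the shared variance, to 2237 risers and to 368 above and 637 below T247. Against T247, leaving out T247 2-cell replicate 1 gave 96 and 153, MGCD0103 2-cell replicate 1 82 and 156, MGCD0103 1-cell replicate 2 108 above and T247 1-cell replicate 2 115 above.

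With the replicate block the counts were 2204 rising, 5365 falling, 878 above and 2426 below control and 157 above and 253 below T247. Deviations of same-numbered MGCD0103 arrays correlated at -0.004 to -0.019 between the stages, and none of the 3 matched its own number best. In control the number also names the slide, with correlations of 0.086, 0.035 and 0.106, and replicates 1 and 3 matched their own number best. With the slide as a fixed block 1091 lay above and 2513 below control. Of the named genes, Obox3 turned to 2.14 with the mean of its probes, and 11 of 143 lost and 7 gained their call with 75th-percentile scaling.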
